A study of Mus musculus with 2 samples.

Results

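The ATP-binding cassette (ABC) family other than Abca1 was described in 2 libraries of mouse peritoneal macrophages, the phagocytes of the abdominal cavity. Members were the rows whose symbol is Abc, a letter from a to g and a number, with or without a closing letter, and Abca1 itself was left out. The rule found 49 genes among the 50608 rows of the table. One library was of cells treated with GW3965, a compound that activates the liver X receptors (LXRs), nuclear receptors that sense oxidised cholesterol. The other was of cells treated with the solvent DMSO. Both are labelled as C57BL6J mice, males and females pooled, at stage E15.5, and neither dose nor duration is stated in the sources used here. Each group was 1 library, so no difference below has a replicate check or a p-value. The column read as GW3965 shares only its opening letters with that sample's label, and every statement on GW3965 rests on that match.

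ABC proteins bind and split ATP, and most use it to move lipids, drugs, peptides or other cargo across a membrane. The ABCA and ABCG branches hold the main exporters of sterols and phospholipids, ABCB and ABCC hold drug and conjugate pumps as well as mitochondrial transporters, and ABCD proteins sit in peroxisomes and lysosomes. ABCE and ABCF proteins have the ATP-binding parts without membrane spans and act on ribosomes. In macrophages, Abca1 and Abcg1 export cholesterol to apolipoprotein A-I and to high density lipoprotein, and both genes are textbook targets of LXR. LXR binds DNA as a pair with the retinoid X receptor, at 2 copies of AGGTCA set 4 bases apart.

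Values are FPKM as the authors deposited them, reads per kilobase of gene scaled to sequencing depth. The steps between low values gave the depth back, 75287126 reads for GW3965 and 101866072 reads for DMSO. Whole reads were recovered in this way for 32 of the 49 members. For the other 17, Abcg1 and Abcc3 among them, reads were estimated from annotated exon lengths. The limit for a measured gene was 1 FPKM in the mean of both libraries, which 23 members reached. The log2 ratio of a gene's (FPKM + 1), GW3965 over DMSO, was centred on the median of the 11889 measured rows (0.24), and genes at 1.5-fold or more on that centred scale counted as higher or lower. In bulk RNA, fewer cells of a type and less RNA per cell cannot be told apart. Macrophage markers were measured in 8 of 8 rows found and summed to 6038 FPKM in GW3965 and 5040 FPKM in DMSO. Gata6, the transcription factor of resident peritoneal macrophages, had only 0.618 FPKM in GW3965 and 0.607 FPKM in DMSO, and 0 of the 8 listed genes of that resident type were measured. Markers of mesothelial cells or fibroblasts summed to 27.3 FPKM in GW3965 and 18.3 FPKM in DMSO over 9 rows, of which 5 were measured, and none was at 0. B cell markers summed to 68.3 FPKM in GW3965 and 11.9 FPKM in DMSO over 5 rows, with Ighm at 64.4 and Cd79a at 1.60 FPKM in GW3965 against 9.26 and 1.03 FPKM in DMSO. Lists for endothelial, T or NK, mast, neutrophil, erythroid and liver cells each summed to at most 5.20 FPKM in GW3965 and 5.37 FPKM in DMSO. The part of such cells in the ABC values was not tested.

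The sequences that bear on an LXR agonist are the stretches around the start sites. RefSeq windows on GRCm38.p6, 250 bases before to 50 after a start, were at hand for 37 members in 44 windows. Abcg1 and Abcc3 were not among them. The exact LXR pattern, on either strand, was in 0 of the 44 member windows, against 0.0152% of all 32851 windows. At least 1 AGGTCA, on either strand, was in 7 of the 44 windows, against 5340 of all 32851 windows (16.3%). These 7 were windows of Abcb6, Abcb11, Abcc2, Abcc10 and Abcg2. Within 2 mismatches in the 12 fixed letters of the pattern lay 1 member window, at an inner start of Abcc10, against 3.02% of all windows, and the other 36 members had 4 or more mismatches. Within 3 mismatches the member windows were still 1 of 44, against 21.9% of all windows. Abca1, shown as the founder of the family, had 3. The windows of Abca1 (chr4:53159846-53160145, minus strand), Abcc10 (chr17:46325717-46326016, minus strand) and Abca7 (chr10:79996244-79996543, plus strand) are printed 5′ to 3′ with the stretch nearest the pattern in capitals, which for Abca7 had 4 mismatches and was the first of 2 equal ones. A match is a likeness of letters and does not by itself show binding, which was not tested.
Abca1: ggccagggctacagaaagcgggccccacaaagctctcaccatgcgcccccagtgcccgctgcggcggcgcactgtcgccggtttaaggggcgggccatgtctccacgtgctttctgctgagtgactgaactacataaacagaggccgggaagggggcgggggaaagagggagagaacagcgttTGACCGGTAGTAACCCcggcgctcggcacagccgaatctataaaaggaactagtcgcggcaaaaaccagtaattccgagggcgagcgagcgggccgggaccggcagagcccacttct
Abcc10: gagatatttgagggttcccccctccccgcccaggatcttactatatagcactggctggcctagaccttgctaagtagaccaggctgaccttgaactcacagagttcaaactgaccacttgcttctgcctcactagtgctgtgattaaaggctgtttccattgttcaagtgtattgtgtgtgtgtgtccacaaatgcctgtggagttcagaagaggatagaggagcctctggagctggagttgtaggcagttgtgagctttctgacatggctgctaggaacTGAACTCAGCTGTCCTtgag
Abca7: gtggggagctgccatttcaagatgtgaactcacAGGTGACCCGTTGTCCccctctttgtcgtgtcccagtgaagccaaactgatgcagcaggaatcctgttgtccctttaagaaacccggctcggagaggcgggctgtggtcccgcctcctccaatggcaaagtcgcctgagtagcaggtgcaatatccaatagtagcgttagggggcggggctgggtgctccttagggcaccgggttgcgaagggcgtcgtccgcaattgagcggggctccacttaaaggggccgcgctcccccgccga

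Among the measured members, Abcg1 and Abcc3 were higher in the GW3965 library and none was lower. The 2 of 23 make 8.70%, against 1.38% of all measured rows higher (164 rows) and 0.336% lower (40 rows). Among the 8866 measured rows with a gene symbol, left after rows named NONCODE, Gm or Rik were set aside, 0.835% were higher and 0.248% lower. As deposited, without centring, the same 2 members were higher and 0 lower, against 3.46% and 0.0757% of all measured rows and 2.20% and 0.0451% of symbol rows. At 2-fold after centring 1 member was left, Abcg1 (4.35%), against 0.673% of all measured rows and 0.361% of symbol rows. The median centred log2 ratio of the 23 members was -0.01, where the median of all measured rows is 0 by construction. For 20 of the 23 the value was between the 5th and the 95th percentile of measured rows, -0.27 and 0.28. Abcg1 and Abcc3 lay above that range and Abca2 below it.

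**Figure D1:**
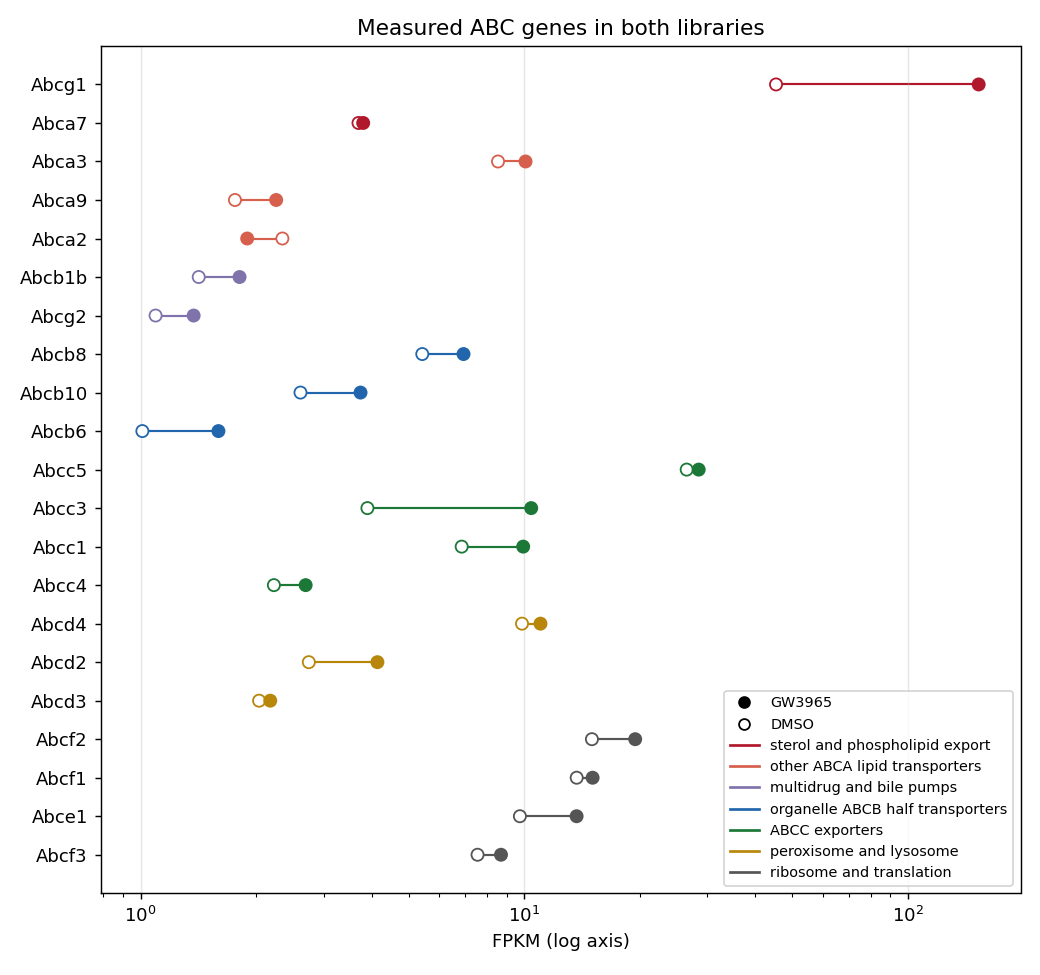
FPKM of 21 of the 23 measured ABC genes on a log axis, filled for GW3965 and open for DMSO, grouped and coloured by role. Abcg1 and Abcc3 have the widest gaps, and Abca2 is the one gene whose GW3965 value is the lower.

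Of the sterol and phospholipid exporters, Abcg1 and Abca7 were measured and Abcg1 was higher. Abcg1, which moves cholesterol to high density lipoprotein and lies on chromosome 17 (GRCm38, chr17:31057675-31117988, plus strand), had 153 FPKM in GW3965 and 45.3 FPKM in DMSO. That is a ratio of 3.37, with a 95% counting interval of 3.33 to 3.42 from an estimated 82851 and 33222 reads, and a centred log2 ratio of 1.49. It ranked 32nd of the 11889 measured rows, where Abca1 ranked first with 261 FPKM in GW3965 and 19.9 FPKM in DMSO. Abcg1 was thus above Abca1 in the DMSO library and below it in the GW3965 library. Abcg1 alone held 44.2% of the summed FPKM of all 49 members in GW3965 (346 FPKM) and 22.7% in DMSO (199 FPKM). Without it the sums were 193 FPKM in GW3965 and 154 FPKM in DMSO, a ratio of 1.26, close to the median ratio of 1.25 over all measured rows.

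Abca7, an exporter of phospholipids that also acts in phagocytosis, had 3.80 FPKM in GW3965 and 3.70 FPKM in DMSO, from 1897 and 2496 whole reads. Its ratio of 1.03 (0.968 to 1.09) lay below the median ratio of all measured rows, with a centred log2 ratio of -0.21, while the value as deposited was 0.03. The remaining sterol genes were near the floor of the table. Abcg4, the closest relative of Abcg1 and known from brain, had 21 reads in GW3965 and 20 in DMSO. Abcg5 and Abcg8, which pair to export plant sterols and cholesterol in liver and gut, had 13 and 16 reads in GW3965 and 11 and 18 reads in DMSO. The counting intervals of all 3 ratios included 1, at 0.733 to 2.76 for Abcg4, 0.661 to 3.94 for Abcg5 and 0.574 to 2.499 for Abcg8. The upper bound lay above the 3.37 of Abcg1 for Abcg5 and below it for Abcg4 and Abcg8. Low rows in general had more FPKM in GW3965, with a ratio of medians of 2.64 for the olfactory receptor rows described below. These bounds therefore do not show whether the 3 genes respond unlike Abcg1.

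**Figure D2:**
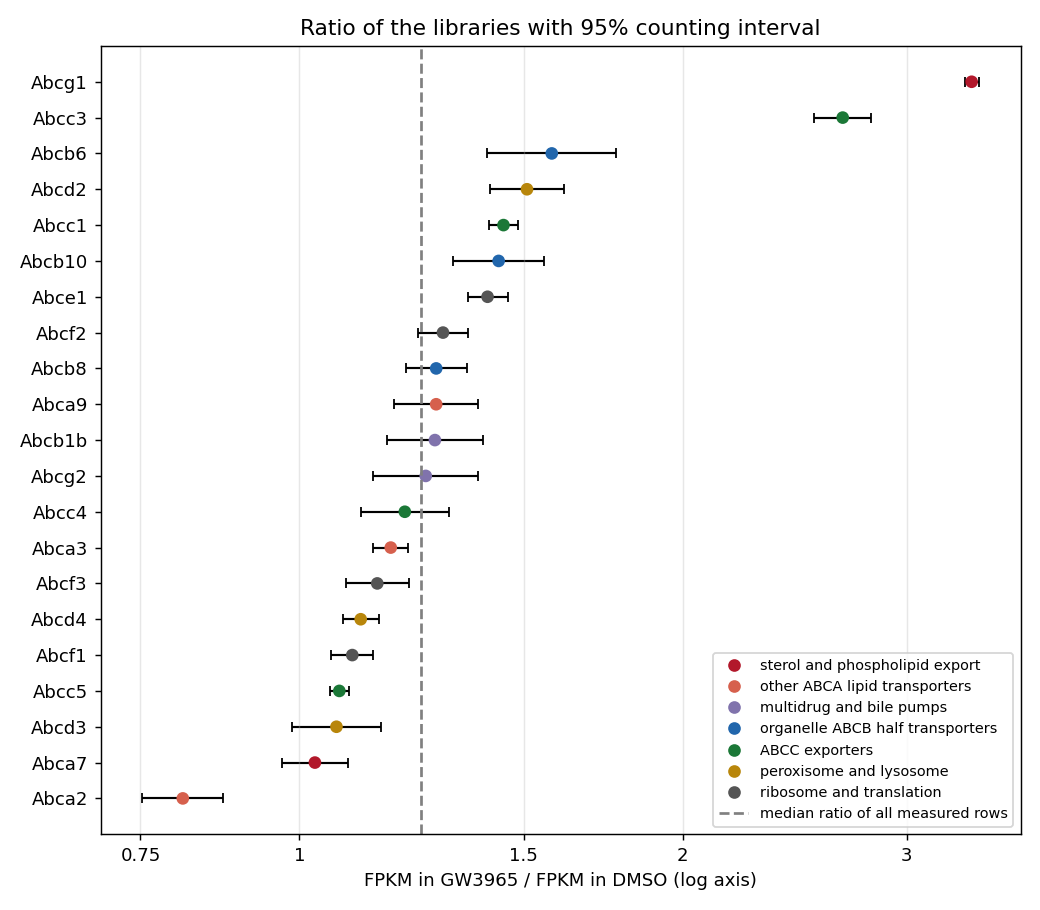
Ratio of FPKM in GW3965 to FPKM in DMSO for 21 of the 23 measured ABC genes on a log axis, with 95% counting intervals that cover counting error only. The dashed line is the median ratio of all measured rows, 1.25, and Abcg1 at 3.37 and Abcc3 at 2.67 stand to the right of the rest, which run from 0.810 to 1.58.

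Of the ABCC exporters, 4 of 8 were measured and Abcc3 was higher. Abcc3, which exports bile acids and glucuronide conjugates in liver and gut and lies on chromosome 11 (chr11:94343295-94392997, minus strand), had 10.4 FPKM in GW3965 and 3.90 FPKM in DMSO. The ratio was 2.67 (2.54 to 2.81, from an estimated 4394 and 2225 reads) and the centred log2 ratio 0.98, which ranked 84th of the measured rows and was under 2-fold after centring. Its level in DMSO was below that of Abcc1, and its level in GW3965 was slightly above it. Abcc1, the exporter of leukotriene C4 and glutathione conjugates, had 9.93 FPKM in GW3965 and 6.87 FPKM in DMSO, at 1.45 times (1.41 to 1.49) and a centred log2 ratio of 0.23.

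Abcc5, an exporter of cyclic nucleotides and nucleotide analogues, was second to Abcg1 among the members in each library, with 28.5 FPKM in GW3965 and 26.5 FPKM in DMSO. Its ratio of 1.07 (1.06 to 1.09) gave a centred log2 ratio of -0.14. Abcc4, which exports cyclic AMP and prostaglandins, had 2.69 FPKM in GW3965 and 2.23 FPKM in DMSO, a ratio of 1.21 (1.12 to 1.31). Abcc10 had 0.532 FPKM in GW3965 and 0.513 FPKM in DMSO, a ratio of 1.04 (0.887 to 1.21), and one of its windows was the closest of the family to the LXR pattern. The sulphonylurea receptors Abcc8 and Abcc9, subunits of potassium channels, were not measured.

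Of the other ABCA lipid transporters, 3 of 14 were measured and none was higher or lower. Abca3, which loads phospholipids into the surfactant bodies of lung cells, had 10.1 FPKM in GW3965 and 8.54 FPKM in DMSO, a centred log2 ratio of -0.03. An antisense transcript, D330041H03Rik, whose symbol has no row, covers 9.8% of its exon bases. Abca9 had 2.26 FPKM in GW3965 and 1.76 FPKM in DMSO, at -0.01. Abca2, a lipid transporter of late endosomes and lysosomes best known from myelin-forming cells, had 1.90 FPKM in GW3965 and 2.34 FPKM in DMSO. Its ratio of 0.810 (0.753 to 0.871) made it the one measured member with less FPKM in GW3965. At a centred log2 ratio of -0.45 it ranked 11769th of 11889, yet it did not reach the 1.5-fold limit. It passed that limit in 1 of the 9 alternatives run for it, with 0.1 in place of 1 FPKM added (-0.60). Those with a 2-fold limit or an added counting interval could not have moved it past.

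Genome neighbours in this branch had unlike levels. Abca8b, Abca8a, Abca9, Abca6 and Abca5 lie in a row on the minus strand of chromosome 11 (chr11:109932190-110337716). From that row Abca9 alone was measured. Abca5, Abca6 and Abca8b had 0.580, 0.623 and 0.491 FPKM in GW3965 and 0.441, 0.533 and 0.405 FPKM in DMSO, while Abca8a had 0.142 FPKM in GW3965 and 0.0926 FPKM in DMSO. No 100-base stretch of the annotated transcripts of these 5 genes, read in the transcribed direction only, occurred in a transcript of another gene. The antisense transcript Gm11697, whose symbol has no row, covers 3.2% of the exon bases of Abca8b. The ratios of the 5 genes ran from 1.17 (0.985 to 1.38) for Abca6 to 1.54 (1.07 to 2.22) for Abca8a.

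Abca3 and Abca17 start 882 bases apart on opposite strands of chromosome 17. Abca17 had 0.184 FPKM in GW3965 and 0.0767 FPKM in DMSO, from 71 and 40 reads, and its level was far below that of Abca3 in each library. The start windows of this divergent pair are shown to compare the measured side with the low one, Abca3 (chr17:24351773-24352072, plus strand) and Abca17 (chr17:24351010-24351309, minus strand), with GGGCGG or CCAAT, on either strand, in capitals. GGGCGG was in the Abca3 window and CCAAT in that of Abca17, and they were in 35.7% and 37.4% of all windows.
Abca3: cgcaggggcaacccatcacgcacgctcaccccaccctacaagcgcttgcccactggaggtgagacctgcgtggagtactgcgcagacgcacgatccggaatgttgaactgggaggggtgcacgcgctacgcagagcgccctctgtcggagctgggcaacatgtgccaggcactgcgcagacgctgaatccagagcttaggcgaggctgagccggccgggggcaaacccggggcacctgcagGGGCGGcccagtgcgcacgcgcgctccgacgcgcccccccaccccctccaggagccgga
Abca17: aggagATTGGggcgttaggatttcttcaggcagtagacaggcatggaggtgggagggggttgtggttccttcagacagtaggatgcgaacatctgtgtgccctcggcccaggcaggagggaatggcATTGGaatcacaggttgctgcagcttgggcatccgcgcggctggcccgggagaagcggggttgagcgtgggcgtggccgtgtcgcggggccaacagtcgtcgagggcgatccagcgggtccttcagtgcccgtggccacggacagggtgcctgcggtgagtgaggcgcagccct

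Of the multidrug and bile pumps, 2 of 6 were measured and neither was higher or lower. Abcb1b, one of a pair of mouse P-glycoproteins that expel drugs, had 1.81 FPKM in GW3965 and 1.42 FPKM in DMSO. The other, Abcb1a, had 1.11 FPKM in GW3965 and 0.835 FPKM in DMSO, just under the limit for measured genes. Gm42686, annotated on the opposite strand and without a row under that symbol, covers 10.1% of the exon bases of Abcb1a. Of the 100-base stretches of Abcb1a 9.23% also occur in other genes, chiefly Abcb1b, and 6.04% of those of Abcb1b in Abcb1a. Reads there fit more than 1 gene, and how such reads were counted is not given. The sum of Abcb1a and Abcb1b was 2.93 FPKM in GW3965 and 2.25 FPKM in DMSO, a ratio of 1.30. Abcg2, which expels drugs, porphyrins and urate, had 1.37 FPKM in GW3965 and 1.09 FPKM in DMSO, a ratio of 1.26 (1.14 to 1.38). Abcg3, a rodent relative of Abcg2, had 1.17 FPKM in GW3965 and 0.748 FPKM in DMSO. Abcb4, the phosphatidylcholine transporter of bile, had 0.317 FPKM in GW3965 and 0.143 FPKM in DMSO, and Abcb11, the bile salt pump, had 41 reads in GW3965 and 25 in DMSO.

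Of the ABCB transporters of organelles, none was higher or lower. Abcb10, a mitochondrial transporter of haem-making cells, had 3.74 FPKM in GW3965 and 2.61 FPKM in DMSO, a ratio of 1.43 (1.32 to 1.56). The antisense transcript Gm45890, whose symbol has no row, covers 10.3% of the exon bases of Abcb10. Abcb8, also mitochondrial, had 6.94 FPKM in GW3965 and 5.42 FPKM in DMSO. Abcb6, a porphyrin transporter, had 1.60 FPKM in GW3965 and 1.011 FPKM in DMSO. For Abcb6, 45.2% of the 100-base stretches are shared with the annotated transcript Gm29253, which covers 55.2% of its exon bases on the same strand. No row has that symbol, and whether the authors' annotation held it is not given, so the reads of Abcb6 are uncertain. The centred log2 ratios of Abcb6, Abcb8 and Abcb10 ran from 0.06 to 0.15, between the 5th and the 95th percentile of all measured rows.

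Of the ABCD genes of peroxisomes and lysosomes, none was higher or lower. Abcd2 and Abcd3 carry fatty acids into peroxisomes. Abcd2 had 4.14 FPKM in GW3965 and 2.74 FPKM in DMSO, at 1.51 times (1.41 to 1.61) and a centred log2 ratio of 0.21. Abcd3 had 2.18 FPKM in GW3965 and 2.04 FPKM in DMSO, at -0.18. Abcd2 was above Abcd3 in both libraries. Abcd4, which helps cobalamin leave lysosomes, had 11.02 FPKM in GW3965 and 9.86 FPKM in DMSO, a ratio of 1.12 (1.08 to 1.15).

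All 4 members without membrane spans were measured too, with none higher or lower. Abce1, which splits ribosomes after translation ends, had 13.7 FPKM in GW3965 and 9.74 FPKM in DMSO, a ratio of 1.41 (1.36 to 1.46). Abcf1, a partner of translation initiation, had 15.1 FPKM in GW3965 and 13.7 FPKM in DMSO. Abcf2 had 19.5 FPKM in GW3965 and 15.01 FPKM in DMSO, and Abcf3 had 8.70 FPKM in GW3965 and 7.55 FPKM in DMSO. Their centred log2 ratios ran from -0.11 to 0.21.

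The sign of a small difference in this family depended on the scaling. Of the 23 measured members, 22 had more FPKM in GW3965 as deposited, but after centring 10 lay above 0 (43.5%) and 13 below, where 46.6% of symbol rows lay above 0. Over the 5 scalings tried, 10 members were above 0 in each and Abca2 was below 0 in each, and the other 12 changed sign. The 10 included Abcg1, Abcc3, Abcb6, Abcb8, Abcb10, Abcc1, Abcd2, Abce1 and Abcf2. The counting interval of the ratio lay above the median ratio of 1.25 for 8 members and below it for 9. These intervals leave out the spread between mice or cultures, which was not measured.

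**Figure D3:**
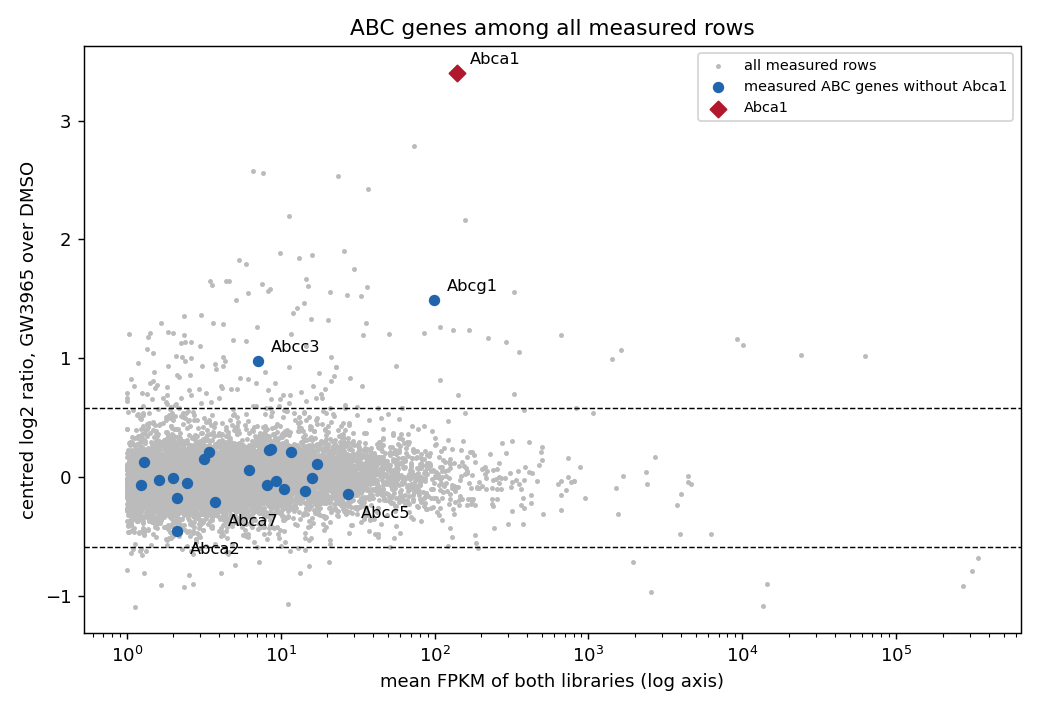
Centred log2 ratio against mean FPKM (log axis) for all 11889 measured rows in grey, the 23 measured ABC genes in blue and Abca1 in red, with dashed lines at 1.5-fold. Abcg1 at 1.49 and Abcc3 at 0.98 lie above the upper line and the other 21 lie between the lines.

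The 26 members under a mean of 1 FPKM all had more FPKM in GW3965 than in DMSO. So did 86.2% of all 38646 detected rows under that mean and 88.2% of the symbol rows among them. Ratios of at least 1.5 were found for 18 of the 26 (69.2%), against 56.6% of all these rows and 57.0% of the symbol rows. Ratios of at least 2 were found for 11 (42.3%), against 39.3% and 38.4%. The 7 of them that reached 0.3 FPKM in a library had ratios from 1.04 for Abcc10 to 2.22 (1.79 to 2.78) for Abcb4. The other 19 lay between 0.0543 and 0.184 FPKM in GW3965 and between 0.0200 and 0.0926 FPKM in DMSO, with 11 to 122 reads in a library. Their median ratio was 2.04 and the highest, 3.95, was that of Abca14, from 35 reads in GW3965 and 12 in DMSO. The 1083 olfactory receptor rows, genes of smell that most tissues do not use, had median levels of 0.0690 FPKM in GW3965 and 0.0261 FPKM in DMSO, a ratio of 2.64. All 19 members were inside the central 95% of olfactory receptor rows in both libraries, 0.0147 to 0.196 FPKM in GW3965 and 0 to 0.0948 FPKM in DMSO. These 19 are Abca4, Abca8a, Abca12, Abca13, Abca14, Abca15, Abca16, Abca17, Abcb5, Abcb9, Abcb11, Abcc2, Abcc6, Abcc8, Abcc9, Abcc12, Abcg4, Abcg5 and Abcg8. Abcb5 was placed in no role group. The cause of the higher low values in the GW3965 library was not tested.

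**Figure D4:**
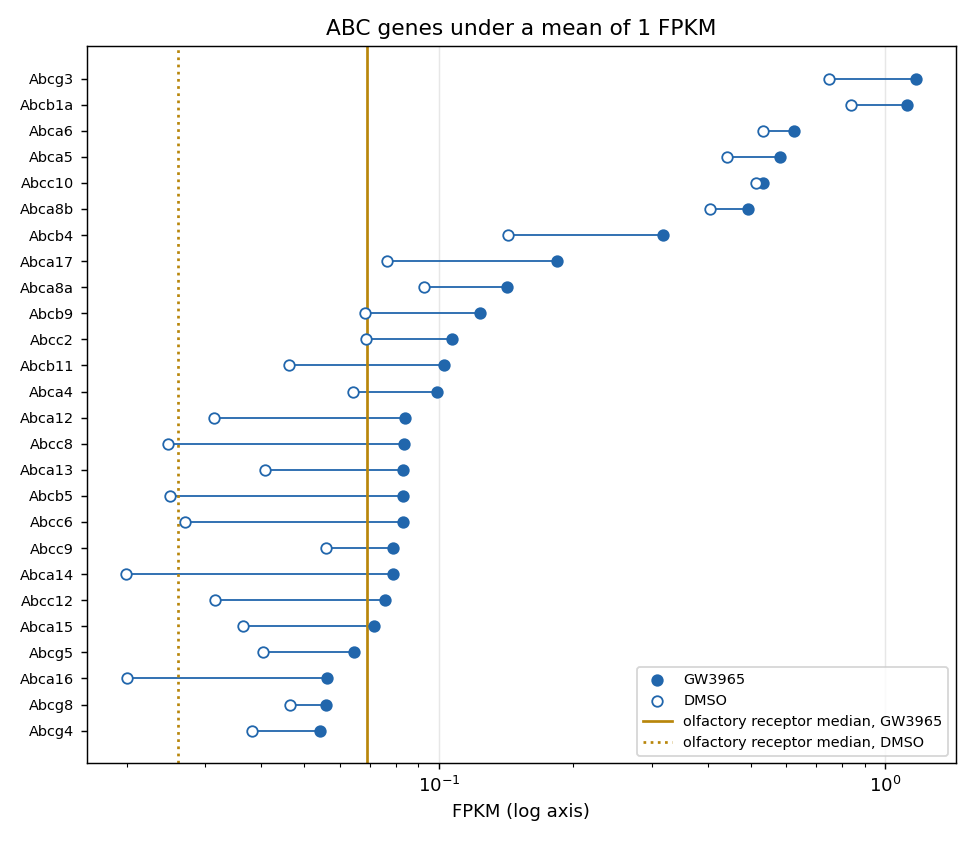
FPKM on a log axis of the 26 ABC genes under a mean of 1 FPKM, filled for GW3965 and open for DMSO, with the olfactory receptor medians as lines (0.0690 FPKM in GW3965, 0.0261 FPKM in DMSO). Every gene lies further right in GW3965, and the lowest 19 are inside the range of the olfactory receptor rows.

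A list of genes around cholesterol efflux held further genes that were higher in the GW3965 library. The list holds known LXR targets and was chosen with earlier results of these data known, so its share is no test. Of its 30 genes, 26 were measured. Of these 7 were higher and 0 lower, against 1.38% and 0.336% of all measured rows. As deposited 8 were higher and 0 lower, against 3.46% and 0.0757%. The median centred log2 ratio was 0.08. The highest were Mylip, which marks the LDL receptor for degradation, at 26.8 FPKM in GW3965 and 5.41 FPKM in DMSO, the phospholipid transfer protein Pltp at 57.9 FPKM in GW3965 and 15.4 FPKM in DMSO, and the transcription factor Srebf1 at 33.0 FPKM in GW3965 and 8.74 FPKM in DMSO. Their centred log2 ratios were 1.87, 1.60 and 1.56, each above the 1.49 of Abcg1. The receptors themselves had values near the median row, at 0.09 for Nr1h3, -0.12 for Nr1h2, -0.11 for Rxra and -0.13 for Rxrb. Of the ABC genes under other symbols, the peptide transporters Tap1 and Tap2 were measured, with 3.34 and 9.50 FPKM in GW3965 and 2.85 and 9.22 FPKM in DMSO. Neither was higher or lower, and Cftr had 0.0627 FPKM in GW3965 and 0.0188 FPKM in DMSO.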

How the data were processed

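Macrophage RNA was sequenced from 1 GW3965 and 1 DMSO sample. A Qiagen kit for total RNA and an Illumina TruSeq RNA kit were used, per the labels' protocols. The authors deposited 1 table of FPKM values. Per the submitters' processing notes, STAR 2.3.0, HTSeq 0.5.4p3 and the build GRCm38 (mm10) were used, with no role or order, while annotation, strand setting and filters were not given in the sources used here. Without strand, reads of a gene and of an antisense partner cannot be told apart. The members and gene lists were chosen with earlier results of these data known.

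Depth came from whole-read ratios of low FPKM values. Of 23819 rows from 0.02 to 0.3 FPKM in DMSO, 96.3% fitted within the rounding of 6 decimals, with at most 60 DMSO reads, against 0.8% when the factor was moved by 1%. GENCODE M21 exon lengths less 99 bases gave the depth, with 291 of 10594 rows at one value and 88 at the next best reduction. A member's reads were taken as whole where exactly 1 read pair gave a whole length from 0.5 to 1.5 times the M21 length. On simulated libraries, 171 of 200 genes gave a unique pair, and 171 of these were right. In the deposited values, recovered lengths were near the M21 length for some members and far from it for others. They were 6726 against 6752 bases for Abca7 and 5802 against 7423 bases for Abca8b. Whether the read pairs taken from the deposited values are right, under an annotation that was not given, was not tested. Ratio intervals are exact conditional (Clopper-Pearson) 95% intervals, for counting error only.

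Named genes are measured members, members at 0.3 FPKM or more in a library, Abca1, ABC genes under other symbols and up to 3 genes per comparison list. The other low members and the receptors were named after their values were seen. Some members are counted but not reported here. Alternatives numbered 10. Coordinates are GENCODE M21 or RefSeq on GRCm38. The tools were matplotlib 3.10.9, scipy 1.17.1, pandas 2.3.3, numpy 2.4.6 and Python 3.11.15.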

Additional observations from a re-analysis of the deposited data

How the results depend on the processing

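No paired analysis was possible because GW3965 and DMSO stand for a single library each. Against 2 members higher, the same sum of FPKM gave 8 of 23, where 2604 of all 11889 measured rows were higher. A 2-fold limit gave 1, Abcg1, where 80 of those rows were higher. The 6 gained with the same sum included Abcb10, Abcc1, Abcd2, Abce1 and Abcf2, under a scaling that moved the members' median to 0.46. Against 0 members lower, adding 0.1 FPKM gave 1, Abca2, where 114 of all 11889 measured rows were lower. As deposited the median was 0.24. Over all measured rows 164 were higher. Those counts were 264 with 0.1 FPKM added, 336 with no filter, 87 at a mean of at least 5 FPKM, 411 as deposited, 2604 with the same sum and 80 at 2-fold. Against 40 rows lower, the counts were 114 and 62 with 0.1 and 0.5 FPKM added, 22 at a mean of at least 5 FPKM, 9 as deposited, 1 with the same sum, 3 at 2-fold and 25 with the counting interval off the median ratio, which leaves out rows without a length. Other causes of these shifts were not tested. The alternatives gave 283 values for 30 named members. Of these, 275 stayed on their side of the limit, 7 passed it, 1 lost it (Abcc3 at 2-fold) and 0 reversed. Part of the 275 was fixed in advance. Members within the limit could not pass it at 2-fold or with the counting interval added. Those under a mean of 1 FPKM could pass it only with no filter. Depth limits the members near the floor, with as few as 11 reads.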

Other observations

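Lists of partners of other ABC proteins had medians from -0.07 to 0.07 on the centred log2 scale. The peptide loading list, with Tap1, Tap2 and their chaperones, had 9 of 9 genes measured, 0 higher and 0 lower, at a median centred log2 ratio of -0.07. Tapbp, the bridge between the peptide transporter and MHC class I, was at 47.8 FPKM in GW3965 and 50.4 FPKM in DMSO, and Pdia3, a chaperone of the same complex, at 76.4 FPKM in GW3965 and 54.0 FPKM in DMSO. Genes of glutathione conjugation and leukotriene synthesis, which supply cargo to Abcc1, had 9 measured members, 0 higher and 0 lower, at a median of 0.07. Gsr, the glutathione reductase, had 22.8 FPKM in GW3965 and 15.9 FPKM in DMSO. Mgst3, a microsomal glutathione transferase, had 9.44 FPKM in GW3965 and 11.9 FPKM in DMSO, with a centred log2 ratio of -0.54. Mgst3 and Tapbp, at -0.32, lay below the 5th percentile of all measured rows (-0.27) without reaching the 1.5-fold limit. Ltc4s, the synthase of leukotriene C4, missed the limit for measured genes and is in none of these counts. It had 0.673 FPKM in GW3965 and 1.231 FPKM in DMSO, a ratio of 0.547 (95% counting interval 0.376 to 0.768), and was named after its values were seen.

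The iron-sulphur and haem list had 9 of 9 measured, 0 higher and 0 lower, at a median of -0.05 and a highest value of 0.06. Abcb10 was at 0.15. Peroxisomal import factors of the ABCD proteins (3 genes) had a median of -0.04, the cobalamin route (3 genes) 0.06 and the ribosome recycling partners of Abce1 (4 genes) -0.01, each with 0 higher and 0 lower, where Abce1 itself was at 0.21. Across all measured rows, 1.38% were higher and 0.336% lower on this scale.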
